A study of Mus musculus with 2 samples.

Results

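Histone genes are described here in vascular smooth muscle cells (VSMCs) of the mouse aorta that carried a control adenovirus or an adenovirus named for Klf5. The 10 genes are the linker histone genes H1fx and H1f0, the core histone genes Hist1h2bc and Hist2h2aa1, and the variant genes H2afz, H2afv, H2afx, H2afy, H3f3a and H3f3b. They were chosen by name from a table of 11263 genes that holds 60 histone genes in all. The choice was made with their values in both libraries known, H1fx and Hist2h2aa1 because they are listed at 0 in 1 library, so the values below are a description and no test was made of them.

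The series holds 2 RNA libraries of primary VSMCs from aorta, 1 labelled Ad-GFP (adenovirus encoding green fluorescent protein, the control) and 1 labelled Ad-K5 (adenovirus encoding Klf5, a zinc finger transcription factor). Per the study's methods, the cells were infected for 36 hours. Both libraries were made from total RNA with random primers and a dUTP second strand, and both cultures were grown in IMDM per the labels. The strain is given as C57BL/6 for Ad-GFP and C57BL/7 for Ad-K5, and the treatment text of both samples names another cell line, LY1, and a lentivirus, so a difference of strain and the infection cannot be told apart. The species of the Klf5 insert is not named in the sources used here. Whether poly(A) RNA was selected is stated in none of the labels, and the methods name only the TruSeq RNA guide. The age and number of the animals were not given.

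Expression is given as FPKM, the fragments assigned to a gene, scaled by transcript length and by library size. Levels of different genes are thus adjusted for length, but not for sequence shared between genes or for any selection of poly(A) RNA. Ratios are differences of log2(FPKM + 1), Ad-K5 minus Ad-GFP, which understate the difference of genes at low FPKM, and a gene is called 2-fold higher or lower where that difference reaches 1. With 1 named library per condition no spread between replicates could be estimated, and no ratio has a replicate check. The FPKM values summed to 278962 in Ad-GFP and 300045 in Ad-K5, and depth is unknown, as no read counts were given. Of the 10157 genes that averaged 1 FPKM or more, the filter on low values used throughout, 99 were 2-fold higher in Ad-K5 and 69 were 2-fold lower, with a median log2 ratio of -0.02. Where both libraries were scaled to a common FPKM sum, the counts were 76 and 105 and the median was -0.11. Klf5 was at 1.76 FPKM in Ad-GFP and 2.62 FPKM in Ad-K5, a log2 ratio of 0.39, which is short of 2-fold. In the mean columns of log2(FPKM + 1) described further on, Klf5 had 1.58 in the column headed 1 and 1.48 in the column headed 2. Of 12 smooth muscle markers 7 were listed and 6 passed the filter, 3 of them with a log2 ratio above 0. Acta2 was at 229 FPKM in Ad-GFP and 201 FPKM in Ad-K5 (-0.19). Smtn was at 23.8 FPKM and 19.5 FPKM (-0.28) and Lmod1 at 4.27 FPKM and 2.54 FPKM (-0.58). Tagln was at 10.3 FPKM and 14.4 FPKM (0.44) and Cald1 at 18.1 FPKM and 21.6 FPKM (0.24). Des was at 1.76 FPKM and 1.77 FPKM (0.005). Myh11, the defining smooth muscle myosin, was not among the 6 that passed.

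The core histones H2A, H2B, H3 and H4 form the protein spool around which DNA is wound, and a linker histone of the H1 family binds where the DNA enters and leaves it. Most core histone genes lie in clusters, have no intron and are transcribed in S phase, when new DNA must be packaged. Their mRNAs end in a stem-loop in place of a poly(A) tail. Variant histone genes lie outside the clusters, usually carry introns, end in poly(A) and are read throughout the cell cycle, so that their proteins can replace core histones at any time.

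The ends of the annotated transcripts are shown first, because the stem-loop and the poly(A) signal are the elements by which histone mRNAs of either kind are known. The stem-loop was searched as 16 bases with a perfectly paired stem of 6 bases and a loop of 4, and the poly(A) signal as AATAAA or ATTAAA with at most 40 bases after it to the transcript end. Capitals mark the stem or the signal, and the sequences come from GENCODE vM21 transcripts on GRCm38.
H1fx, poly(A) signal: tggggcgcAATAAAcggttcca
H1f0, poly(A) signal: aactttaaAATAAAactggaaa
H2afz, poly(A) signal: gcttactaATTAAAcagtgcat
H2afx, stem-loop: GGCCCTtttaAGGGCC
H2afx, poly(A) signal: ctaattttATTAAAggatcgtt
Hist2h2aa1, stem-loop: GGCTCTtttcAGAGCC
Hist1h2ao, stem-loop: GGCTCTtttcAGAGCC
Hist1h2bk, stem-loop: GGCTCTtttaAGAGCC
Hist1h1c, stem-loop: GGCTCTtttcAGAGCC
Hist1h1c, poly(A) signal: atgcttctAATAAAaagcgttt

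Of the 49 cluster genes in the table, 32 held the stem-loop in an annotated transcript and 11 held a poly(A) signal, 8 genes held both and 14 neither. All 11 genes outside the clusters held a poly(A) signal, and H2afx was the only 1 of those 11 with a stem-loop as well. Over all protein-coding transcripts the stem-loop pattern was present in 208 of 58797, or 0.354%. In Hist2h2aa1 it lay 35 bases before the end of a transcript of 586 bases. In H2afx it lay 822 bases before the end of a transcript of 1384 bases, which closes with the poly(A) signal shown above. The single annotated transcript of Hist1h2bc held neither element.

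H1fx encodes H1.10 (H1X), a linker histone that is made outside S phase as well as in it. It was listed at 0 FPKM in Ad-GFP and at 118 FPKM in Ad-K5. No ratio is given for a gene listed at 0, because a 0 in a table without counts can be a failed estimate. Among 11275 rows, 11 (0.0976%) were at 0 in Ad-GFP and above 0 in Ad-K5, and 5 (0.0443%) the other way round. H1fx was the only 1 of these rows to reach 10 FPKM in the other library, the next highest being Hist2h2aa1 at 4.58 FPKM.

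H1fx is a gene of 1 exon on chromosome 6, from 87980421 to 87981637 on the minus strand of GRCm38. The antisense gene Gm5577 and the same-strand gene Gm47286 overlap it. Of the 50-base windows of its transcript, 14.04% were also in the transcript of another annotated gene, all of them on the opposite strand. Whether the counting used strand is not stated, and within these shared windows reads of H1fx and of its antisense partner cannot be told apart without it.

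H1f0 encodes H1.0, the linker histone that builds up in cells that leave the cell cycle. It was at 313 FPKM in Ad-GFP and 265 FPKM in Ad-K5, a log2 ratio of -0.24. In Ad-GFP it was the highest of the 10 genes, and in Ad-K5 as well. H1f0 also has 1 exon (chromosome 15, 79028212 to 79030498, plus strand), so both linker genes are intronless and carry AATAAA near the transcript end. Their summed level was 313 FPKM in Ad-GFP and 382 FPKM in Ad-K5.

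Hist2h2aa1 encodes a core H2A and lies on chromosome 3 from 96245497 to 96246082, plus strand. It was listed at 0 FPKM in Ad-GFP and at 4.58 FPKM in Ad-K5. Its copy Hist2h2aa2 was at 1.94 FPKM in Ad-GFP and 3.38 FPKM in Ad-K5, a log2 ratio of 0.57. All windows of both genes (100%) were found in the transcripts of other annotated genes, so the split of reads between these loci is uncertain. The partners of Hist2h2aa1 include the overlapping genes Gm20634 on its own strand and Gm20633 and Gm47313 on the other.

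The likeness of these copies reaches upstream of the genes, and both promoters are shown for that reason. Each sequence holds the 250 bases before the gene start in RefSeq on GRCm38.p6, read in the direction of transcription, with CCAAT or its reverse complement ATTGG in capitals. The longest run of identical bases in both is 169 bases long.
Hist2h2aa1, chr3:96245247-96245496, plus strand: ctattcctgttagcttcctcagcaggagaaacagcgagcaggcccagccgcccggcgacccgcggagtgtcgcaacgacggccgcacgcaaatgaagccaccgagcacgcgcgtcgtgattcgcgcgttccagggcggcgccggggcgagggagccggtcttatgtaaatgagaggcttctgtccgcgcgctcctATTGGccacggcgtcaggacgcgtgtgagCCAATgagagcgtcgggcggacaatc
Hist2h2aa2, chr3:96240375-96240624, minus strand: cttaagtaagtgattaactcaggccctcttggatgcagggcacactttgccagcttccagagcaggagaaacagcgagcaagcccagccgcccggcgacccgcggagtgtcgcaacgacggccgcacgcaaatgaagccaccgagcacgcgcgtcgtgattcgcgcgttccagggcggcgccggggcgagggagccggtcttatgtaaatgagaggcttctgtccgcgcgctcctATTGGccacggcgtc

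Hist1h2bc encodes a core H2B and lies in the large cluster on chromosome 13 (23684199 to 23692908, plus strand). It was at 7.23 FPKM in Ad-GFP and 30.5 FPKM in Ad-K5, a log2 ratio of 1.94. This was the widest ratio among the histone genes that were above 0 in both libraries. The annotation gives it 2 exons, which places it among the spliced genes below although core histone genes have no intron as a rule. Of its windows, 30.6% were shared, for the most part with Hist1h2bg.

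The variant genes were close in both libraries. H2afz and H2afv encode the H2A.Z proteins, which mark promoters and are placed by the SRCAP and EP400 complexes. H2afz was at 155 FPKM in Ad-GFP and 175 FPKM in Ad-K5, a log2 ratio of 0.18. H2afv was at 131 FPKM and 108 FPKM, a log2 ratio of -0.27. These ratios have opposite signs, and the summed level of both genes was 285 FPKM in Ad-GFP and 283 FPKM in Ad-K5. Of the windows of H2afz 35.4% were shared, most of them with Tmcc1, while none (0%) of those of H2afv were.

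H2afx encodes H2A.X, the variant that is phosphorylated beside DNA breaks. It was at 119 FPKM in Ad-GFP and 108 FPKM in Ad-K5, a log2 ratio of -0.13. It has 1 exon, like H1fx and Hist2h2aa1, and was above 0 in both libraries. H2afy encodes macroH2A1, a variant with a large globular domain that is enriched on silent chromatin. It was at 16.3 FPKM in Ad-GFP and 19.0 FPKM in Ad-K5, a log2 ratio of 0.20, and its level was the lowest of the 6 variant genes in both.

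H3f3a and H3f3b encode the same protein, H3.3, which is placed in active genes and at telomeres outside replication. H3f3a was at 69.2 FPKM in Ad-GFP and 79.4 FPKM in Ad-K5, a log2 ratio of 0.20. H3f3b was at 132 FPKM in Ad-GFP and 136 FPKM in Ad-K5, a log2 ratio of 0.04 that turned to -0.07 with a common FPKM sum. The order of the pair was the same in both libraries, and their sum was 202 FPKM in Ad-GFP and 215 FPKM in Ad-K5. Antisense genes overlap H3f3a (Gm17275 and H3f3aos) and none was found for H3f3b.

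**Figure D1:**
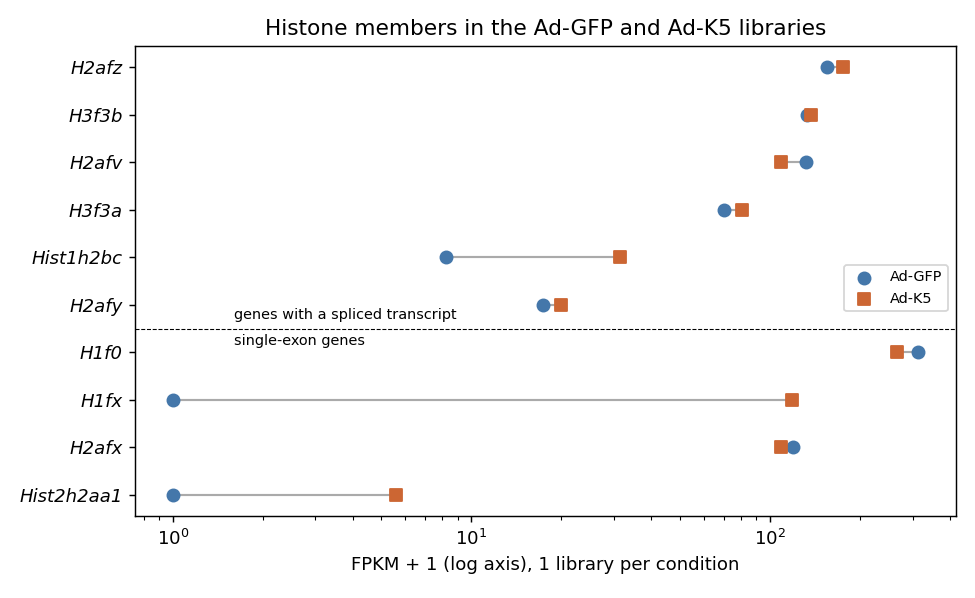
FPKM + 1 on a log axis for the 10 histone genes, with a circle for the Ad-GFP library and a square for the Ad-K5 library, 1 library each. H1fx and Hist2h2aa1 sit at 0 FPKM in Ad-GFP and at 118 and 4.58 FPKM in Ad-K5, Hist1h2bc goes from 7.23 to 30.5 FPKM, and the other 7 genes are under 0.5 apart on the log2 scale.

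All 10 genes passed the filter on low values, H1fx and Hist2h2aa1 only through Ad-K5. Of the 10 genes, 3 were 2-fold higher in Ad-K5, against 0.975% of all genes, and 0 were 2-fold lower, against 0.679% of all genes. These counts are fixed by the choice of the genes and nothing is read from them. The median log2 ratio was 0.19, or 0.11 without the genes listed at 0, beside -0.02 over all genes.

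The single-exon and the spliced genes were then set apart. The single-exon genes were H1fx, H1f0, Hist2h2aa1 and H2afx. Their median log2 ratio was 1.17 with 0 taken at face value and -0.19 without the 2 genes listed at 0, so the sign of the median rests on those 2 genes. H1f0 and H2afx were both lower in Ad-K5. The 6 genes with a spliced transcript had a median log2 ratio of 0.19, and 5 of them were above 0. With a common FPKM sum the median was 0.08 and 4 were above 0. Hist1h2bc was the only 1 of these 6 past 2-fold.

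Single-exon genes as a class were placed a little higher in Ad-K5 with the FPKM as deposited. Of 232 single-exon genes that passed the filter, 7 (3.02%) were 2-fold higher and 0 (0%) were 2-fold lower, and 66.4% had a log2 ratio above 0, while 90 of 9921 genes with a spliced transcript (0.907%) were 2-fold higher. The median log2 ratio was 0.16 for the single-exon genes, with the middle 95% between -0.46 and 1.08, and -0.02 for the spliced genes. Without histone genes, the median of the remaining 200 single-exon genes was 0.10, and 2 of them were 2-fold higher, beside 0.975% of all genes. A common FPKM sum, which moved the median over all genes to -0.11, was not applied to this class. Of 284 single-exon genes in the table, before any filter, 2 were listed at 0 in Ad-GFP, H1fx and Hist2h2aa1, and 0 in Ad-K5.

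The cluster genes, which supply histones for DNA replication, were mostly higher in the named Ad-K5 library than in the named Ad-GFP library. Of 49 cluster genes 30 passed the filter, and 28 of these had a log2 ratio above 0 (27 with a common FPKM sum), where 47.9% of all genes did. Their median log2 ratio was 0.43, and 5 were 2-fold higher (0.975% of all genes) and 0 lower (0.679% of all genes). These counts include Hist1h2bc and Hist2h2aa1, which were chosen with their values known. Without both, 28 cluster genes passed, 26 of them above 0 and 3 of them 2-fold higher, with a median of 0.41. In the values left in the mean columns, which are described further on, the direction turned over the 30 genes, with 9 above 0 and a median of -0.28. There the median was -0.35 for the 20 genes with at least 50% shared windows and 0.03 for the other 10. The 11 genes outside the clusters all passed, with a median log2 ratio of 0.14, 7 of them above 0 and 1 of them, H1fx, 2-fold higher. The summed level of the cluster genes was 683 FPKM in Ad-GFP and 1073 FPKM in Ad-K5, and that of the genes outside was 1008 FPKM and 1089 FPKM. Of the 30 genes, 4 passed the filter only through Ad-K5 (Hist2h2aa1, Hist1h2ac, Hist1h3g and Hist2h2bb) and 0 only through Ad-GFP, so their direction was fixed by the filter. Without any filter, 44 of the 49 cluster genes were above 0, with a median of 0.44, beside 47.8% of 11260 genes.

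Most of the cluster FPKM belonged to H2A, the partner of H2B in the nucleosome. All 15 H2A genes of the clusters passed the filter and were above 0 in log2 ratio (14 with a common FPKM sum), with a median of 0.41. Their summed level was 632 FPKM in Ad-GFP and 958 FPKM in Ad-K5, which is 92.5% and 89.3% of the cluster FPKM. Hist1h2ap was at 262 FPKM and 403 FPKM, a log2 ratio of 0.62. Hist1h2ao was at 258 FPKM and 392 FPKM, a log2 ratio of 0.60. With 93.1% and 93.5% of their windows shared, the split of reads between these 2 near-copies is uncertain. Together they made up 82.3% of the H2A sum in Ad-GFP and 83% in Ad-K5.

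Other H2A genes followed the same direction at lower levels. Hist1h2ag was at 39.8 FPKM and 63.8 FPKM in Ad-GFP and Ad-K5, a log2 ratio of 0.67. Hist1h2ah was at 18.6 FPKM and 28.4 FPKM, a log2 ratio of 0.59, and Hist1h2af at 3.34 FPKM and 4.82 FPKM, a log2 ratio of 0.42. The H2A genes above 0 in both libraries ran from 0.06 to 0.67, so none of them reached 2-fold.

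H2B genes were few above the filter and wide in ratio. Of 12 H2B genes 4 passed, and 3 of these were 2-fold higher, among them the chosen Hist1h2bc, beside 0.975% of all genes. Hist1h2bg was at 1.56 FPKM in Ad-GFP and 5.94 FPKM in Ad-K5, a log2 ratio of 1.44, and Hist1h2bk at 1.46 FPKM and 5.37 FPKM, a log2 ratio of 1.37. Hist2h2bb was at 0.893 FPKM and 1.76 FPKM, a log2 ratio of 0.55. With a pseudocount of 5 the ratios were 0.74 for Hist1h2bg and 0.68 for Hist1h2bk, and in the difference of the mean columns they were 0.47 and 0.43, with 0.95 for Hist1h2bc, all under 2-fold. The summed level of the 12 genes was 15.2 FPKM in Ad-GFP and 52.0 FPKM in Ad-K5, with Hist1h2bc as the largest single term in both. Among the listed genes the H2B sum was thus far under the H2A sum in either library, although both proteins enter the nucleosome in equal number. Hist1h2bq, which shared 66.5% of the windows of Hist1h2bk, was not among the 12 H2B genes. Most of the H2A sum lay in the near-copies Hist1h2ao and Hist1h2ap. What lies behind the unequal sums was not tested.

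H3 and H4 genes of the clusters were at low levels throughout. Of 10 H3 genes 4 passed, with a median log2 ratio of 0.17 and a sum of 9.50 FPKM in Ad-GFP and 12.6 FPKM in Ad-K5. Of 11 H4 genes 6 passed, all above 0, with a median of 0.48 and a sum of 13.7 FPKM and 23.0 FPKM. The highest H4 gene was Hist1h4i at 4.44 FPKM and 6.83 FPKM, a log2 ratio of 0.53. The widest H4 ratio was 0.75 in Hist1h4h, at 1.47 FPKM and 3.17 FPKM, followed by 0.58 in Hist1h4n, at 1.57 FPKM and 2.84 FPKM. Hist1h4a was at 1.01 FPKM and 1.72 FPKM, a log2 ratio of 0.44.

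Hist1h1c encodes H1.2, a linker histone of the cluster whose transcript carries both ends shown above. It was at 13.03 FPKM in Ad-GFP and 27.5 FPKM in Ad-K5, a log2 ratio of 1.02 that was 0.92 with a common FPKM sum, with 8.54% of its windows shared. H2afj, an H2A variant that accumulates in senescent human cells, was at 17.5 FPKM and 29.8 FPKM, a log2 ratio of 0.74, the highest of the 9 variant genes outside the clusters. Its difference was 0.33 in the mean columns and -0.07 in the values left in them. The lowest was H2afy2 (macroH2A2) with a log2 ratio of -0.40. The 9 variant genes summed to 696 FPKM in Ad-GFP and 706 FPKM in Ad-K5.

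**Figure D2:**
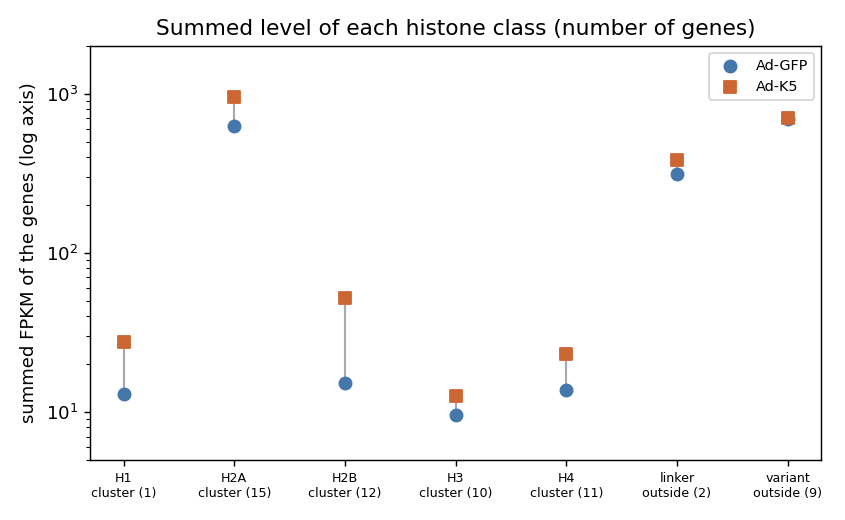
Summed FPKM of the histone genes of each class on a log axis, with a circle for Ad-GFP, a square for Ad-K5 and the number of genes in brackets. The sum of the H2B genes goes from 15.2 to 52.0 FPKM and that of the H2A genes from 632 to 958 FPKM, while the variant genes stand at 696 and 706 FPKM.

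Shared sequence limits the values of the cluster genes. In 30 of the 49, at least 50% of the windows were in another annotated gene as well. Among the 19 cluster genes under that limit 10 passed the filter, with a median log2 ratio of 0.48, and among the other 30 genes 20 passed, with a median of 0.41. Over all histone genes with less than 50% shared windows the median was 0.20, beside 0.40 over all 41 histone genes that passed.

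The promoters of the cluster genes shared sequence features that were not used to choose them. CCAAT, searched on both strands of the 250 bases upstream, was in 36 of 46 matched cluster genes (78.3%), beside 33.8% of 32851 RefSeq promoters. TATAAA was in 18 (39.1%), beside 12.4%. GGGCGG, a GC box to which Sp and Klf proteins can bind, was in 15 (32.6%), beside 32.7%, and CACCC, another Klf-type motif, in 11 (23.9%), beside 52%. Of the 10 chosen genes 8 were matched, and 5 held CCAAT, 1 TATAAA, 6 GGGCGG and 2 CACCC. The H1fx promoter held 1 GGGCGG, 1 CACCC and no CCAAT, and 75.2% of its bases were G or C. RefSeq and GENCODE place the starts differently, so 155 of the 250 bases taken for H1fx, and all 250 for H2afy, H3f3a and H3f3b, lie inside the GENCODE gene. Some matched cluster genes on opposite strands have overlapping windows, such as Hist1h2ag and Hist1h2bj, so that the same site can be counted for both. A match describes the letters only and is no evidence of binding.

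The table also holds, for each gene, mean columns of log2(FPKM + 1) headed 1 and 2, which are the authors' means. The header does not name their groups or the libraries behind them. H1fx had 6.72 in the column headed 1 and 0 in the column headed 2. Hist1h2bc had 4.26 and 3.30, Hist2h2aa1 had 1.24 and 0.78, and H1f0 had 7.75 and 7.89. The difference of the columns was above 1 for H1fx alone among the 10 genes, where 0.157% of all genes were 2-fold apart in that direction, and 6 of the 10 were above 0, beside 50% of all genes.

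If each mean is taken over 2 libraries, the value of a further library can be had by taking the named library out. With Ad-K5 under column 1 and Ad-GFP under column 2, 0 of 11275 rows left a negative value, whereas the swapped order left one in 50 and 69 rows. The labels do not name these further libraries, so the values left were not used as replicates and are given as a description. H1fx was left with 93.0 FPKM in column 1 and 0 FPKM in column 2, so that it was at 0 throughout the column that can hold Ad-GFP. For Hist2h2aa1 the order turned, with 0 FPKM left in column 1 and 1.95 FPKM in column 2. Its value in Ad-K5 is thus the only one above 0 behind column 1.

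Hist1h2bc was left with 10.6 FPKM in column 1 and 10.8 FPKM in column 2, a log2 difference of -0.03. Its level of 30.5 FPKM in Ad-K5 thus stood apart from the other 3 values, 7.23, 10.6 and 10.8 FPKM. H1f0 was left with 174 FPKM and 177 FPKM, below both of its named libraries. The differences left for the variant genes ran from -0.22 for H2afz to 0.02 for H2afx, so none of the 6 was past 2-fold there either. Over the 10 genes the median difference left was -0.03, with 1 gene 2-fold higher (H1fx), where 0.285% of all genes were, and 1 lower (Hist2h2aa1, with 0 taken at face value).

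The higher level of the cluster genes was not found in the values left. Of the 30 cluster genes that passed, 9 were above 0, beside 55.4% of all genes, and their median difference was -0.28. Of the 10 with under 50% shared windows 5 were above 0 (median 0.03), and of the other 20, 4 were (median -0.35). Among the 30, 0 genes were 2-fold higher and 3 were lower. Hist2h2aa1, chosen with its values known, was left at 0 FPKM in column 1 and 1.95 FPKM in column 2. Hist1h4h was left at 0.20 and 1.96 FPKM and Hist1h4n at 0.18 and 2.32 FPKM, all of them low levels. The share of all genes 2-fold lower there was not counted. Hist1h2ap was left with 173 FPKM in column 1 and 234 FPKM in column 2, a log2 difference of -0.43. Hist1h2bg and Hist1h2bk, both 2-fold higher in the named Ad-K5 library, had differences left of -0.49 and -0.51. Hist1h1c kept its direction with 11.8 FPKM and 9.41 FPKM, a log2 difference of 0.30. The direction of the cluster genes in the named libraries therefore rests on those libraries.

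**Figure D3:**
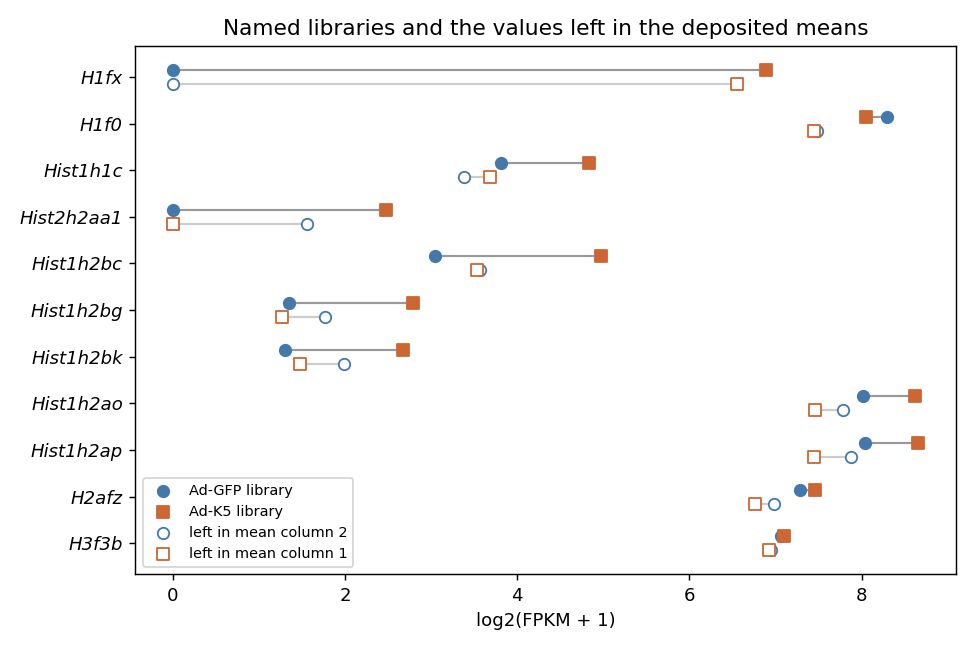
Log2(FPKM + 1) of selected histone genes in the named Ad-GFP (filled circle) and Ad-K5 (filled square) libraries, and the values left in mean column 2 (open circle) and mean column 1 (open square) once these libraries are taken out, with 2 libraries assumed per mean. H1fx is the only gene drawn whose open symbols are over 2-fold apart in the order of its filled ones (0 and 93.0 FPKM left), while the open symbols of Hist1h2bc meet (10.6 and 10.8 FPKM). Those of Hist2h2aa1, Hist1h2bg, Hist1h2bk, Hist1h2ao, Hist1h2ap, H2afz and H3f3b lie in the opposite order to the filled ones, for H3f3b by only -0.02.

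Genes that act on histones were read from lists fixed by name. Of 24 symbols for genes of histone mRNA 3′ processing 21 were listed and passed. Of these, 0 were past 2-fold in either direction, and the median log2 ratio was 0.04. The symbols hold an older and a newer name of the same gene for Zcchc6 (Tut7) and Papd7 (Tent4a). Fewer genes than symbols were therefore sought. Zcchc6 (TUT7), which adds uridines to RNA ends, was at 3.76 FPKM in Ad-GFP and 2.496 FPKM in Ad-K5, a log2 ratio of -0.44. Wdr33, the subunit that recognises the poly(A) signal, had -0.43 (25.7 and 18.8 FPKM). Lsm1, of the ring that starts decay of histone mRNA, had 0.37 (9.84 and 13.04 FPKM), and Npat, the coactivator of the histone clusters, also had 0.37 (1.88 and 2.71 FPKM). Slbp, which binds the stem-loop, was at 16.7 FPKM and 15.6 FPKM.

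Of 31 histone chaperones 29 passed the filter, with 0 past 2-fold and a median log2 ratio of -0.06. Asf1a, which hands H3 and H4 to the assembly factors, had the widest ratio, 0.72 (3.03 and 5.65 FPKM). Npm3, a nucleoplasmin, had 0.66 (49.7 and 78.9 FPKM). Ubn1, of the HIRA complex that places H3.3, had -0.53 (19.3 and 13.04 FPKM). Supt6, a histone chaperone that travels with RNA polymerase II, had -0.52 (47.3 and 32.8 FPKM).

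Of 21 genes for the exchange of H2A.Z and the marking of H2A.X 20 passed, with a median of -0.13. Of these, 6 were above 0, beside 47.9% of all genes, and 1 was 2-fold lower, beside 0.679% of all genes. Srcap, the motor of the complex that places H2A.Z, was at 7.37 FPKM in Ad-GFP and 1.17 FPKM in Ad-K5, a log2 ratio of -1.95. In the values left in the mean columns its difference was 0.62, in the opposite direction. Mdc1, the reader of phosphorylated H2A.X, had -0.89 (35.97 and 19.0 FPKM), Trrap -0.65 (18.6 and 11.5 FPKM) and Ep400 -0.64 (17.4 and 10.8 FPKM). In the values left, the differences were -0.08 for Mdc1, 0.01 for Trrap and 0.03 for Ep400. There 13 of the 20 genes were above 0, beside 55.4% of all genes, with a median of 0.01.

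Since the cluster genes are transcribed in S phase, genes of DNA replication and proliferation are given beside them. All 24 passed, with 12 above 0, beside 47.9% of all genes, 0 past 2-fold and a median log2 ratio of -0.01. Ccne2, the cyclin of entry into S phase, had 0.45 (3.81 and 5.56 FPKM), Cdk2, its kinase, 0.44 (7.97 and 11.2 FPKM) and Ccna2, the S phase cyclin, 0.42 (43.4 and 58.4 FPKM). Mki67, a mark of cycling cells, had -0.44 (21.3 and 15.4 FPKM).

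Markers of other cell types also differed between the named libraries. Of 10 mesothelial markers 7 were listed, and 5 of them were 2-fold higher in Ad-K5, beside 0.975% of all genes. The 7 summed to 49.0 FPKM in Ad-GFP and 181 FPKM in Ad-K5, with a median difference left in the mean columns of -0.05. Of 8 fibroblast markers 4 were listed, all lower in Ad-K5, with sums of 760.2 FPKM and 596 FPKM, and 0 of 8 endothelial markers had a value here. The smooth muscle markers summed to 288 FPKM and 261 FPKM, and the 5 that passed besides Acta2 summed to 58.3 FPKM and 59.8 FPKM. In bulk RNA, fewer cells of a type and less RNA per cell cannot be told apart, and the part of these cells in the histone values was not tested.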

How the data were processed

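RNA of 1 library per condition was compared, with samples assigned by their titles. The authors deposited FPKM for both libraries, their means of log2(FPKM + 1) in the columns headed 1 and 2, and columns of their own comparison (log2 and linear fold changes, p-values and q-values), which were not used. Tools named in the submitters' processing notes are STAR 2.5.2b, HISAT2 2.0.5, StringTie and cutadapt, with build mm8, while the methods name HTSeq and a human genome. The coordinates of the table are those of GRCm38, and 11267 of 11275 IDs were found in GENCODE vM21, version numbers ignored. The sequencer differs between the methods and the labels.

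Rows sharing a symbol were summed, giving 11263 genes. Ratios used a pseudocount of 1 and a mean of at least 1 FPKM. No test was made, since each group has 1 named library. Depth is unknown, so no counting interval is given. The genes, lists and tests were chosen with earlier results of these data known. Named are the 10 genes, the 15 other histone genes with the widest ratios, up to 4 genes a list, and Klf5. Slbp, H2afy2, Hist1h2ac, Hist1h3g and smooth muscle markers were added after their values were seen. Alternatives were other pseudocounts, filters, scalings and treatments of shared symbols, and the mean columns. Counting was tested on simulated data. Python 3.11.15, numpy 2.4.6, pandas 2.3.3 and matplotlib 3.10.9 were used. Windows of 50 bases and sequence elements were searched in GENCODE vM21 transcripts and in RefSeq promoters (GRCm38.p6). No protein sequences were used here.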

Additional observations from a re-analysis of the deposited data

How the results depend on the processing

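No paired analysis was possible because each group has 1 named library, and for the same reason no library could be left out in turn. Alternatives that need read counts were not run. A filter at a mean of 5 FPKM gave 65 genes 2-fold higher and 45 lower in Ad-K5, with a pseudocount of 0.1 these were 159 and 189, and with a pseudocount of 5 they were 33 and 19. A common FPKM sum gave 105 lower. The median over all histone genes (0.40) was 0.19 with a pseudocount of 5. That pseudocount brought 3 named ratios under 2-fold, Hist1h1c (0.85), Hist1h2bg (0.74) and Hist1h2bk (0.68), and the difference of the mean columns brought 4 under it, Hist1h1c (0.66), Hist1h2bc (0.95), Hist1h2bg (0.47) and Hist1h2bk (0.43). No ratio is printed for H1fx and Hist2h2aa1, which are listed at 0. With 0 taken at face value they enter the counts and medians, unless they are said to be left out. With a common FPKM sum, the median over the spliced genes among the 10 (0.19) was 0.083. The median over the single-exon genes among the 10 (1.17) turned to -0.13 with that filter, where Hist2h2aa1 drops out, and was 0.40 with a pseudocount of 5. The 3 alternatives that follow were chosen after the data were seen. With genes listed at 0 left out, that median was -0.19 and 1 of the 10 genes was 2-fold higher. In the values left in the mean columns it was -0.0029, the median over the spliced genes was -0.033 and that over all histone genes -0.080, with 1 of the 10 genes 2-fold higher and 1 lower. There the log2 difference was -0.028 for Hist1h2bc, -0.49 for Hist1h2bg, -0.51 for Hist1h2bk, -1.30 for Hist1h4h and -1.49 for Hist1h4n. The cause of these turns was not tested. With histone genes under 50% shared windows alone, the median over histone genes was 0.20. Centring on the median, trimmed mean scaling, no filter and the highest row per symbol left all 23 named histone ratios on their side of 2-fold and within 0.2 of their value. The unknown depth limits genes at low FPKM most.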
